A study of Mus musculus with 24 samples.

Results

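Complex I, NADH:ubiquinone oxidoreductase, is the entry enzyme of the mitochondrial respiratory chain, and this is an account of its nuclear genes in mouse calf muscle. The genes were all those whose symbol in the array's annotation starts with Nduf, 44 of the 19057 genes that the annotation names with a single symbol. They were read from the signals of 68 probes. Of these 44 genes, 42 passed the detection filter and were tested. They were 33 subunits, 7 assembly factors named Ndufaf, Ndufa4, which is now assigned to complex IV, and the transcribed pseudogene Ndufs5-ps. The subunit Ndufs1 and the assembly factor Ndufaf6 were not detected on any of the 24 arrays, so nothing is known here of their levels.

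The RNA came from gastrocnemius of male B6D2F1 mice, a hybrid strain, and the labels name no transgene or deletion. The groups were 5 old caloric restricted mice aged 24 months, 6 old ad libitum mice aged 24 months and 6 young ad libitum mice aged 8 months. Caloric restriction is a lowered food intake without malnutrition, and the sources used here give neither its degree nor its start. Below, "with age" sets old ad libitum against young mice and "under restriction" sets restricted against old ad libitum mice. The mice were on 24 bead arrays, with 5 mice on more than 1 array, and the series title asks whether restriction keeps mitochondrial function in old age and whether mitochondrial biogenesis rises.

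Complex I takes electrons from NADH, hands them through a flavin and a chain of iron-sulphur clusters to ubiquinone, and pumps protons across the inner membrane. Its matrix arm carries the redox centres, and its membrane arm carries the pumps, whose core subunits are encoded by mitochondrial DNA. The remaining subunits are accessory and nuclear encoded: they stabilise the matrix arm and the proximal and distal parts of the membrane arm. The Ndufaf proteins help to build the enzyme and are not part of the finished complex. Muscle, with its high demand for ATP, is rich in these transcripts.

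All 42 tested genes were detected on all 24 arrays, and 36 of them were read by a probe above the 95th percentile of signal. An array of a restricted mouse had 13625 to 14401 detected probes, one of an old ad libitum mouse 13974 to 14890 and one of a young mouse 13662 to 15176. Values below are log2 normalised signals, 1 unit being a doubling, and differences between them. The median SD between mice of a group was 0.138 for the subunits, 0.165 for the Ndufaf genes and 0.178 for all 8943 genes tested. Signal from a piece of muscle cannot tell fewer fibres or mitochondria-rich cells apart from less RNA per cell. All 8 skeletal muscle markers were detected and tested. Markers of other cell types also passed the filter, so passing it does not by itself identify the tissue.

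No complex I gene passed the threshold in any of the 3 comparisons, an adjusted p under 0.05 in limma after Benjamini-Hochberg adjustment over all genes. With age 0 of 42 were called, where 2.06% of all genes tested were. Under restriction 0 of 42 were called, against 3.18% of all genes. In restricted against young mice 0 of 42 were called, against 4.71% of all genes. At an unadjusted p under 0.05 in limma there were 6 genes with age (14.3% of the 42, against 19.4% of all genes), 2 under restriction (4.8%, against 19.8%) and 6 between restricted and young mice (14.3%, against 21.5%). In no complex I gene were all mice of one group above or below all mice of the other, whereas 2.59%, 2.36% and 5.13% of all genes were so separated in these 3 comparisons. The comparisons share their groups of mice, so they do not count as separate evidence.

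By the brightest probe of each gene, which is the one used unless another is named, the sizes were small. Log2 differences lay between -0.10 and 0.33 with age, between -0.27 and 0.15 under restriction and between -0.24 and 0.38 for restricted against young mice. The 95% interval of the difference stayed within 1.5-fold either way for 41 of 42 genes with age, for all 42 under restriction and for 41 of 42 between restricted and young mice. The exception in both cases was Ndufb4. For all genes tested the shares with so narrow an interval were 87.0%, 85.3% and 85.2%. Other probes of the complex I genes lay from -0.15 to 0.27 with age and from -0.39 to 0.23 under restriction. They lay from -0.52 to 0.45 for restricted against young mice.

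**Figure D1:**
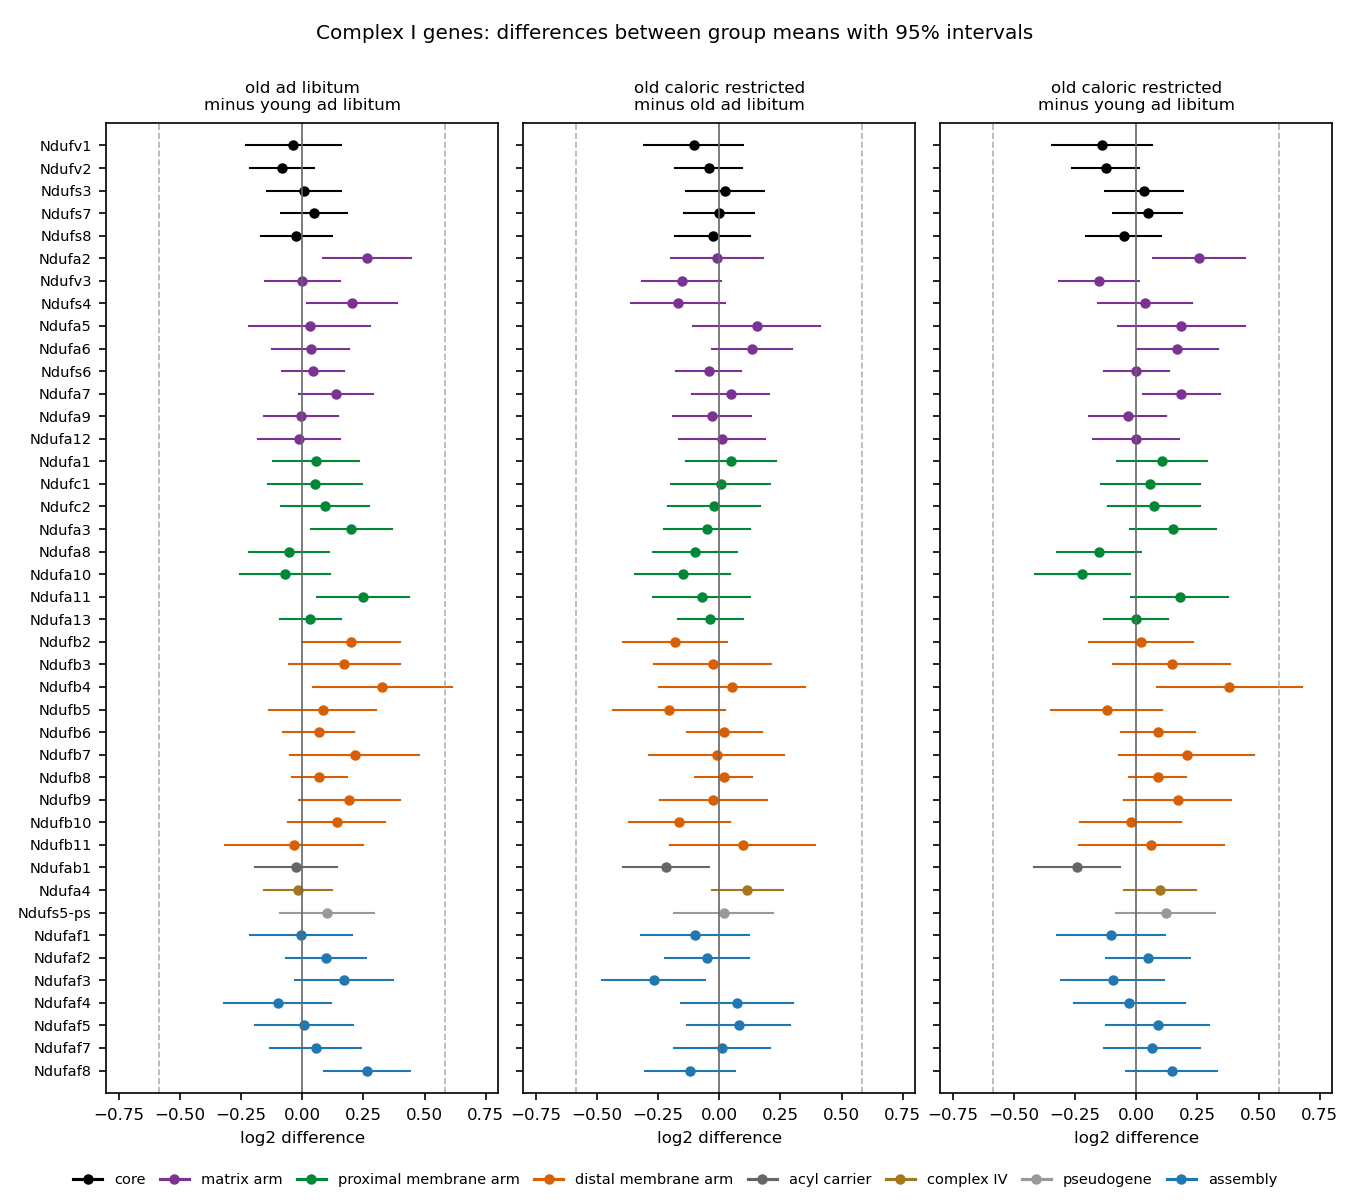
Difference between group means (log2, x axis) for each of the 42 complex I genes (rows, coloured by role) in the 3 comparisons, with 95% intervals as bars and dashed lines at 1.5-fold. Each gene is shown by its brightest probe. Points lie close to 0, and Ndufb4 alone has an interval that crosses a dashed line, in the left and right panels.

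With age, 24 of the 33 subunits were higher, with a median difference of 0.052, but when arrays were scaled to their 75th percentile instead of quantile normalised, 32 of 33 were higher and the median was 0.18. The median of all genes was 0.018 with quantile normalisation and 0.058 with that scaling, and 4849 and 5739 of the 8943 genes were higher. Under restriction 11 of the 33 were higher than in old ad libitum mice, with a median of -0.026, against -0.021 for all genes, of which 44.7% were higher. The 75th percentile scaling gave 12 of 33 and a median of -0.028. Restricted mice were higher than young mice in 21 of 33, with a median of 0.047, and in 28 of 33 with a median of 0.16 under the other scaling. Of the 8943 genes, 4317 and 4934 were higher in the same comparison. Among the 1552 other genes read by probes above the 95th percentile of signal, a list added after the data were seen, the median with age was -0.013 with quantile normalisation and 0.072 with the scaling. In that list 722 and 1127 genes were higher with age. The median of the subunits with age thus depended on the scaling, and their median under restriction kept its sign and size.

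Seen mouse by mouse, the mean deviation of the 33 subunits from their level over all 17 mice was 0.002 ± 0.049 in restricted mice (SD, n = 5), 0.038 ± 0.055 in old ad libitum mice (SD, n = 6) and -0.040 ± 0.056 in young mice (SD, n = 6). Restricted mouse 5 had the lowest value of its group, -0.075, and 15 of the 33 subunits were at their group's lowest in that mouse. Old ad libitum mouse 6 had the highest, 0.11, and held its group's highest level of 16 subunits. Among young mice, mouse 2 was at -0.11 and had 8 of 33 subunits above the mean of all mice, whereas mouse 6 was at 0.044 and had 21. The groups overlapped. Without restricted mouse 5 the median difference of the subunits under restriction was 0.001 in place of -0.026, so its sign rested on that mouse.

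**Figure D2:**
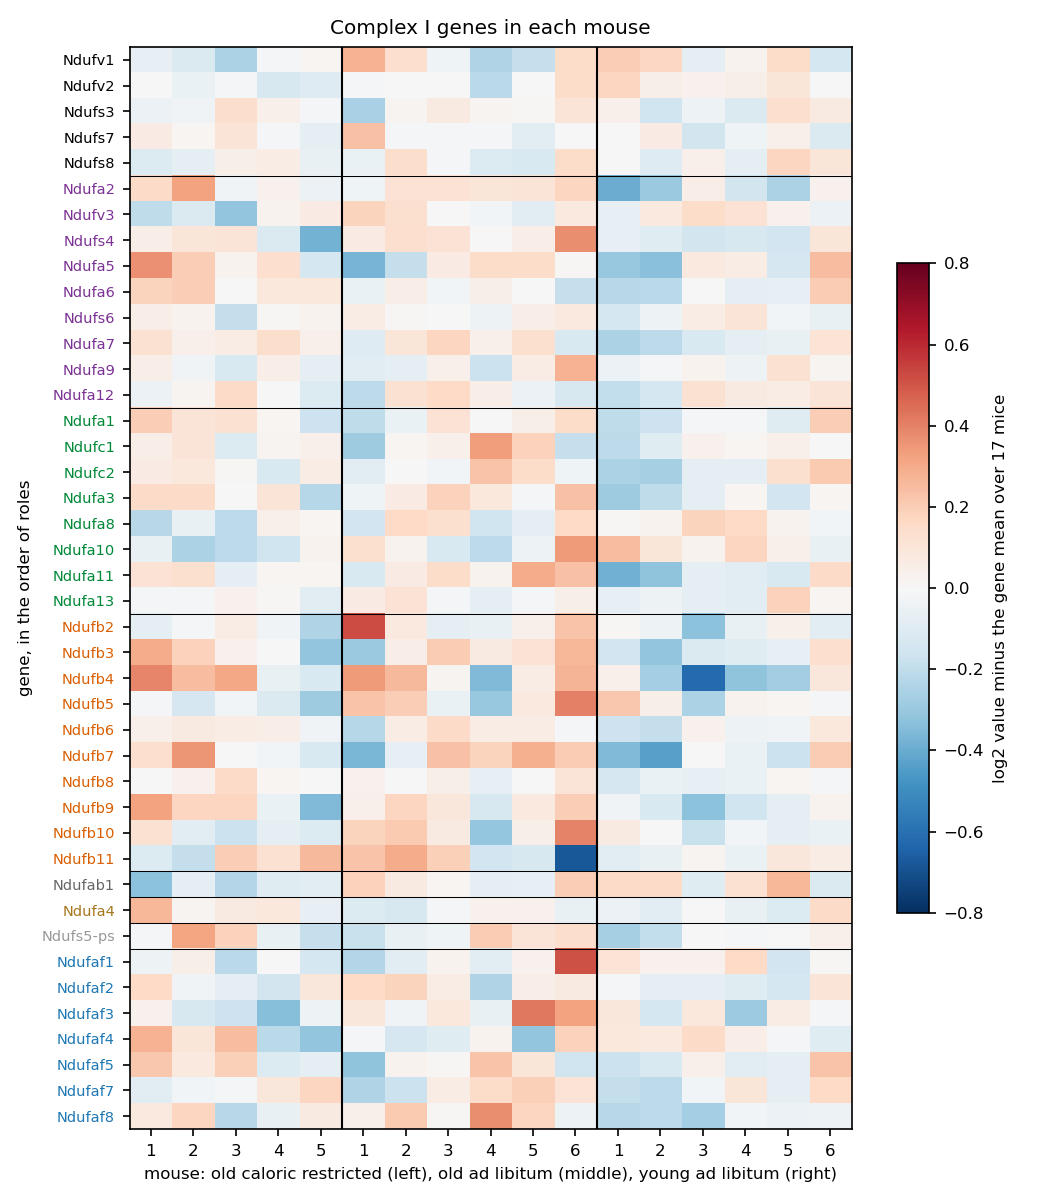
Log2 value minus the gene's mean over 17 mice (colour) for each complex I gene (rows, in the order of roles, names coloured by role) in each mouse (columns, old caloric restricted at the left, old ad libitum in the middle and young ad libitum at the right). Colours change from mouse to mouse within each group, with Ndufb11 in old ad libitum mouse 6 (7.74) and Ndufb4 in young mouse 3 (11.10) among the deepest.

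Few markers of other fibres and cells passed the threshold, and their values are given beside those of complex I. The slow fibre markers, of which 10 of 11 listed were tested, had a mean deviation between -1.33 and 1.83 in restricted mice, between -1.79 and 0.71 in old ad libitum mice and between -1.44 and 0.37 in young mice. Restricted mouse 5, the lowest of its group for the subunits, was at -1.33, and the other restricted mice were between 0.69 and 1.83. Old ad libitum mice 4 and 5 were at -1.31 and -1.79, with subunit values of -0.041 and 0.035. Under restriction all 10 slow fibre markers were higher, with a median of 1.07. With age 9 of 10 were higher, with a median of 0.39. None was called in either comparison. All 10 were also higher in restricted than in young mice, and 1 of them, the slow myosin heavy chain Myh7, passed the threshold. Myh7 was detected on 5 of 7 arrays of restricted mice, 1 of 7 of old ad libitum mice and 1 of 10 of young mice. It met the filter only through the restricted mice, so its call is no support and no fold or p is given. Slow fibres are rich in mitochondria. Of the 7 tested macrophage markers, 6 were lower under restriction, with a median of -0.28, and 1 of them, Mpeg1, a pore-forming protein of macrophages, fell to 0.429-fold (adjusted p = 0.00347, limma). Their mean deviation lay between -0.58 and 0.043 in restricted mice, between -0.45 and 0.56 in old ad libitum mice and between -0.12 and 0.27 in young mice. The 8 skeletal muscle markers were all lower with age, with a median of -0.067 and none past the threshold, and the giant filament protein Neb, named after its value was seen, had the largest difference, -0.49 (adjusted p = 0.0823). The 6 fibroblast markers were all lower with age, with mean deviations between -0.76 and 0.50 in old ad libitum mice and between 0.046 and 0.53 in young mice, and none passed the threshold. All 3 tested erythroid markers were higher with age, with a median of 1.03, and none passed the threshold. Their mean deviation varied widely between old ad libitum mice, from -0.95 in mouse 1 to 2.40 in mouse 3. It lay between -0.66 and 2.19 in restricted mice and between -1.02 and -0.40 in young mice. The part of these cells in the complex I values was not tested.

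The promoters of the complex I genes hold words known from other work on respiratory genes. NRF1 and the ETS factor GABP are activators of nuclear genes for respiration, YY1 is a factor that binds near many start sites, and ERR alpha is a nuclear receptor that works with PGC-1 alpha. RefSeq promoters of build GRCm38.p6, 250 bases before to 50 after the start, were found for 39 of the 44 genes, 41 promoters in all. The NRF1 word GCGCANGCG, on either strand, was in 10 of the 41 (24.4%), against 6.25% of all 32851 promoters of that length. The word was first searched with a final C, which gave 9 (22.0%), against 4.60%, and the shorter form was taken up after those counts were seen. The YY1 word AAGATGGCG was in 6 (14.6%), against 1.40%. The ETS word CCGGAAG was also in 6 (14.6%), against 8.86%. The ERR word CAAGGTCA was in 0 of 41, against 1.56%, which says only that these letters are not in these windows. Of the 41 promoters, 20 held at least 1 of the words and 21 held none. The median GC content was 59.3% in the complex I promoters and 52.7% in all, and a word rich in G and C is more frequent in such sequence.

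Shown here, chosen after the search because they hold words, are the promoters of Ndufb4, the gene with the largest difference and with 3 NRF1 words, Ndufs6, which has an NRF1 and a YY1 word and whose probes differ, Ndufaf4, with overlapping NRF1 words on both strands and a probe past the threshold, and Ndufaf8, with an ETS and a YY1 word and the smallest p with age. They run 5′ to 3′ on the gene's strand and the words are in capitals. The positions are chr16:37654319-37654618 on the minus strand for Ndufb4, chr13:73328433-73328732 on the minus strand for Ndufs6, chr4:24897833-24898132 on the plus strand for Ndufaf4 and chr11:120098684-120098983 on the plus strand for Ndufaf8.
Ndufb4: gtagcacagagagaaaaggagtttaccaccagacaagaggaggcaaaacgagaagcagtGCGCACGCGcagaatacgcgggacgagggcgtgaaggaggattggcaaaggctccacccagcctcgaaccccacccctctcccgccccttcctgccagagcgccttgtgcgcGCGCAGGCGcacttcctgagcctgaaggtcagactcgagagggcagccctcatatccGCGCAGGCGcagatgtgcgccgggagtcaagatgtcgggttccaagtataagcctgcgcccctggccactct
Ndufs6: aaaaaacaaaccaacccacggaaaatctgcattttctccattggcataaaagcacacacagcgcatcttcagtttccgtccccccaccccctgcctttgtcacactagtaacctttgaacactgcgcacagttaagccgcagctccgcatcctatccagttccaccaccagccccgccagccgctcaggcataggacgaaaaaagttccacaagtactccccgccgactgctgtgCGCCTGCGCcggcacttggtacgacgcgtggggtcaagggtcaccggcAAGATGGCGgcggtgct
Ndufaf4: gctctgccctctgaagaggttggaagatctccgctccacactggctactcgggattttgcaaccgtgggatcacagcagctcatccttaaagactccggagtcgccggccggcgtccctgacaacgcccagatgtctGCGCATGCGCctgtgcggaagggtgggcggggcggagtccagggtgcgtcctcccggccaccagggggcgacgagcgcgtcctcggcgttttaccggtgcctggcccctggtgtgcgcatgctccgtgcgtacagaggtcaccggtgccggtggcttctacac
Ndufaf8: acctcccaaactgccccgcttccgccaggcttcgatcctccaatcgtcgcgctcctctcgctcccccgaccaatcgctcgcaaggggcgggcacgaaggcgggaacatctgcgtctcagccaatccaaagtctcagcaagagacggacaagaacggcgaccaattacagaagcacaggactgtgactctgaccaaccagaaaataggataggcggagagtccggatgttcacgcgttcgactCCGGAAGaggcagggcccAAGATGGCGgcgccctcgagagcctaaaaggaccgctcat
A match of letters is a description and does not show that a factor binds there.

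The core subunits of the matrix arm, which carry the redox centres, differed little between the groups. Those tested were 5: Ndufv1, which binds NADH and flavin, Ndufv2, an iron-sulphur protein, Ndufs3, a structural core subunit, Ndufs7, which holds the last cluster before ubiquinone, and Ndufs8, another iron-sulphur protein. With age 2 of the 5 were higher, with a median difference of -0.025, but under the 75th percentile scaling 5 of 5 were higher and the median was 0.11. Under restriction their median was -0.026, with 1 of 5 higher. Ndufv1 read 14.26, 14.21, 14.07, 14.31 and 14.34 in restricted mice, against 14.08, 14.38 and 14.60 (lowest, median and highest) in old ad libitum mice and 14.18, 14.41 and 14.52 in young mice. Its difference was -0.10 ± 0.097 (SE) under restriction (adjusted p = 0.59) and -0.035 ± 0.092 with age (adjusted p = 0.863). The 3 groups overlapped throughout.

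Ndufv2 read 14.23, 14.17, 14.21, 14.10 and 14.12 in restricted mice, against 14.01, 14.22 and 14.37 in old ad libitum mice and 14.22, 14.27 and 14.40 in young mice. Its largest difference was between restricted and young mice, -0.12 ± 0.065 (adjusted p = 0.277), and 4 of the 5 restricted mice lay below the lowest young mouse. Ndufs7 read 14.30, 14.25, 14.34, 14.22 and 14.16 in restricted mice, against 14.15, 14.23 and 14.47 in old ad libitum mice and 14.09, 14.22 and 14.30 in young mice. Ndufs3 read 13.48, 13.50, 13.67, 13.57 and 13.52 in restricted mice, against 13.27, 13.55 and 13.63 in old ad libitum mice and 13.37, 13.53 and 13.66 in young mice. In both genes the medians of the groups were within the spread of any 1 group, and old ad libitum mouse 1 stood apart, high for Ndufs7 and low for Ndufs3. Ndufs8 read 13.16, 13.20, 13.32, 13.33 and 13.21 in restricted mice, against 13.15, 13.24 and 13.42 in old ad libitum mice and 13.17, 13.29 and 13.44 in young mice. Across these 3 genes the adjusted p was 0.721 or more in every comparison.

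Among the 9 accessory subunits of the matrix arm, 7 were higher with age (median 0.034, and 9 of 9 with a median of 0.17 under the other scaling). Ndufa2, a small subunit with a thioredoxin-like fold, stood out most. It read 13.96, 14.13, 13.78, 13.84 and 13.76 in restricted mice, against 13.77, 13.92 and 13.98 in old ad libitum mice and 13.41, 13.60 and 13.86 in young mice. Both old groups were higher than most young mice, with an overlap of 2 young mice. The difference was 0.26 ± 0.086 with age, 1.20-fold (95% interval 1.06 to 1.36, adjusted p = 0.0994), and 0.26 ± 0.090 between restricted and young mice (adjusted p = 0.105), but -0.008 ± 0.090 under restriction (adjusted p = 0.977). Under the 75th percentile scaling Ndufa2 passed the threshold with age (0.38, adjusted p = 0.0463) and between restricted and young mice (0.40, adjusted p = 0.0401). Within each of the 4 chips it was higher with age, by 0.13 to 0.32. Some mice were on several chips, so the chips do not count as separate evidence.

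Ndufs4, which holds the NADH-binding end of the arm in place and whose loss causes a Leigh-like disease in mice, read 13.39, 13.43, 13.44, 13.22 and 12.96 in restricted mice, against 13.33, 13.43 and 13.71 in old ad libitum mice and 13.18, 13.23 and 13.43 in young mice. Restricted mouse 5 was the lowest of all 17 mice and old ad libitum mouse 6 the highest. Its difference was 0.20 ± 0.087 with age (adjusted p = 0.211) and -0.17 ± 0.091 under restriction (adjusted p = 0.317). The other probes of Ndufs4 gave 0.028, 0.071 and 0.14 with age. Under restriction they gave 0.049, 0.033 and -0.19, so the probes did not all run the same way. Ndufa7, another small matrix arm subunit, read 13.48, 13.40, 13.42, 13.50 and 13.40 in restricted mice, against 13.24, 13.43 and 13.53 in old ad libitum mice and 13.11, 13.26 and 13.47 in young mice. All restricted mice were above 5 of the 6 young mice, a difference of 0.18 ± 0.075 (adjusted p = 0.158). Ndufv3, at the NADH-binding end, read 13.26, 13.35, 13.15, 13.49 and 13.53 in restricted mice, against 13.38, 13.50 and 13.64 in old ad libitum mice and 13.40, 13.52 and 13.61 in young mice. Of the restricted mice 3 lay below every other mouse and 2 among them, a difference of -0.15 ± 0.077 under restriction (adjusted p = 0.284). The other 5, Ndufa5, Ndufa6, Ndufs6, Ndufa9 and Ndufa12, had differences between -0.013 and 0.043 with age and between -0.042 and 0.15 under restriction.

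Of the 8 tested accessory subunits of the proximal membrane arm, 6 were higher with age (median 0.054, and 0.19 with all 8 higher under the other scaling) and 2 were higher in restricted than in old ad libitum mice (median -0.043). Ndufa11, a membrane subunit that helps to hold the arms together, read 12.30, 12.31, 12.11, 12.20 and 12.20 in restricted mice, against 12.06, 12.29 and 12.48 in old ad libitum mice and 11.80, 12.08 and 12.34 in young mice. The difference with age was 0.25 ± 0.090 (adjusted p = 0.141), and young mouse 6 was the only young mouse above the median of the old ad libitum mice. Ndufa3, a single-span membrane subunit, read 13.78, 13.78, 13.62, 13.73 and 13.40 in restricted mice, against 13.59, 13.70 and 13.86 in old ad libitum mice and 13.34, 13.51 and 13.64 in young mice, 0.20 ± 0.079 with age (adjusted p = 0.176). The other probe of Ndufa3 gave 0.27 with age (adjusted p = 0.0719, limma over all probes). Its unadjusted p of 0.0038 was the smallest with age of all tested complex I probes. Ndufa10, a subunit related to nucleoside kinases, ran the other way. It read 13.67, 13.48, 13.52, 13.57 and 13.76 in restricted mice, against 13.52, 13.72 and 14.07 in old ad libitum mice and 13.67, 13.80 and 13.98 in young mice, a difference of -0.22 ± 0.092 between restricted and young mice (adjusted p = 0.177). The other 5, Ndufa1, Ndufa8, Ndufa13, Ndufc1 and Ndufc2, lay between -0.052 and 0.093 with age and between -0.098 and 0.050 under restriction. Ndufa13, also known as GRIM-19, was among the brightest, and array maxima of 42536.3 to 52106.7 set the room above it.

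Of the arms, the distal membrane arm had the highest median with age. Of its 10 tested subunits, 9 were higher with age, median 0.16, and 9 of 10 with a median of 0.26 under the other scaling. Under that scaling 8 of the 10 had an unadjusted p under 0.05 in limma, against 48.5% of all 33 subunits and 21.5% of all genes. With quantile normalisation 1 of the 10 did, against 19.4% of all genes. Restricted mice were higher than old ad libitum mice in 4 of 10, median -0.017. Ndufb4, a distal arm subunit, read 12.11, 11.97, 12.03, 11.66 and 11.60 in restricted mice, against 11.37, 11.88 and 12.06 in old ad libitum mice and 11.10, 11.45 and 11.81 in young mice. The old groups sat high and the young mice low, with overlap. Its difference was 0.33 ± 0.13 with age, 1.25-fold (95% interval 1.03 to 1.53, adjusted p = 0.195), and 0.38 ± 0.14 between restricted and young mice, 1.30-fold (1.06 to 1.60, adjusted p = 0.125). Its SD between arrays of 1 mouse, 0.27, was as wide as that between mice, 0.25. Ndufb5 read 13.54, 13.42, 13.53, 13.44 and 13.27 in restricted mice, against 13.25, 13.69 and 13.96 in old ad libitum mice and 13.30, 13.57 and 13.77 in young mice, -0.20 ± 0.11 under restriction (adjusted p = 0.308). The other 8 lay between -0.035 and 0.22 with age, with Ndufb7 the highest and Ndufb11 the lowest, and between -0.18 and 0.097 under restriction, with Ndufb2 the lowest and Ndufb11 the highest.

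Ndufab1, the mitochondrial acyl carrier protein, sits in both arms of complex I and also serves fatty acid synthesis and iron-sulphur cluster assembly. It read 13.80, 14.05, 13.89, 14.03 and 14.04 in restricted mice, against 14.05, 14.17 and 14.32 in old ad libitum mice and 14.01, 14.26 and 14.39 in young mice. Of the 5 restricted mice, 4 lay below every old ad libitum mouse, while 2 of the young mice were as low as the restricted mice. Its difference was -0.22 ± 0.084 under restriction, 0.859-fold (95% interval 0.761 to 0.971, adjusted p = 0.152), and -0.24 ± 0.084 between restricted and young mice (adjusted p = 0.102). With age it was -0.024 ± 0.080 (adjusted p = 0.898), and 0.13 under the 75th percentile scaling. Its 3 other probes gave -0.13, 0.039 and -0.33 under restriction, so they did not all run the same way. Ndufa4 differed by -0.018 with age and 0.12 under restriction, and Ndufs5-ps, whose probe cannot be told from Ndufs5, by 0.10 and 0.020.

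**Figure D3:**
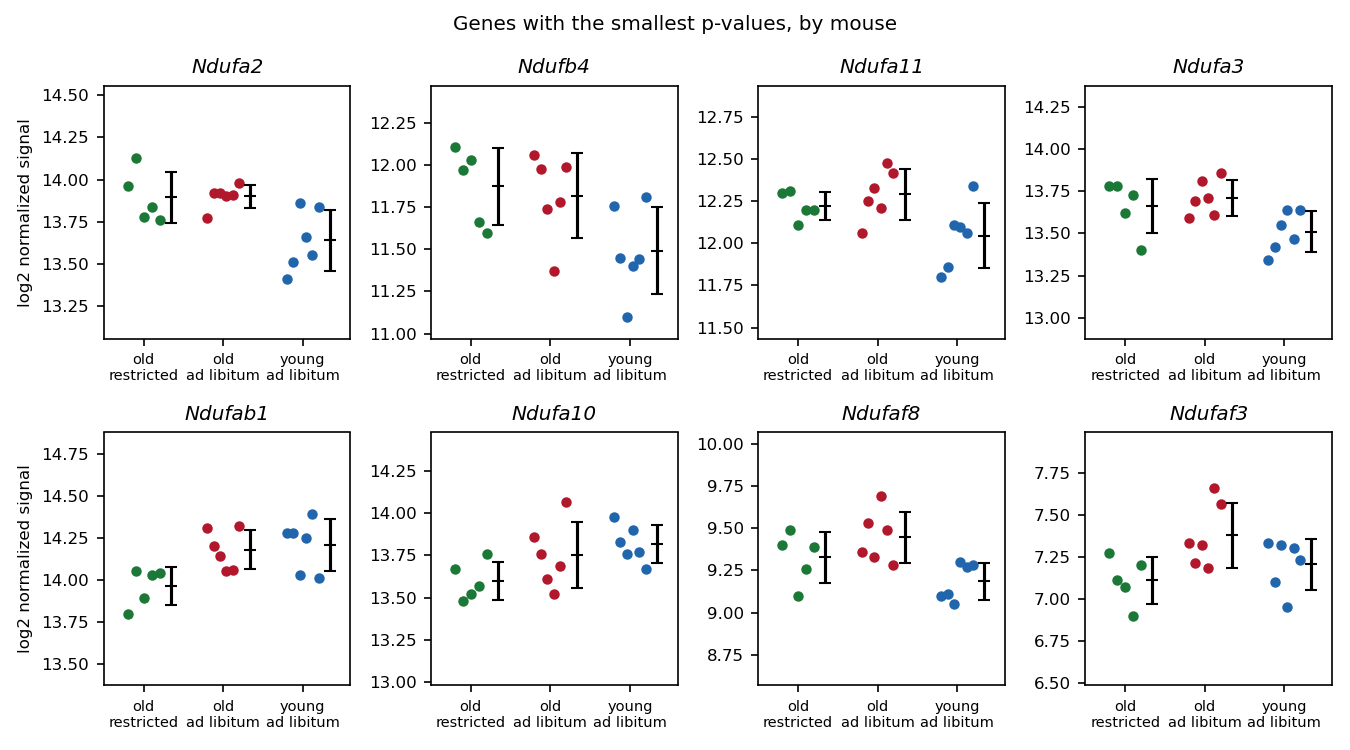
Log2 normalised signal (y axis, the same width in every panel) of 8 of the genes with the smallest p-values in each mouse (points), for old restricted, old ad libitum and young ad libitum mice from left to right, with the mean and SD of each group as a black bar. The groups overlap in every panel, and Ndufa2, Ndufb4, Ndufa11, Ndufa3 and Ndufaf8 have their lowest means in young mice.

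The 7 tested Ndufaf assembly factors were weaker in signal than most subunits, and 5 of them were higher with age (median 0.056, and 0.077 with 6 higher under the other scaling). Restricted mice were higher than old ad libitum mice in 3 of 7 (median -0.049). Ndufaf8, the partner of Ndufaf5, had the smallest p with age of all complex I genes, each read by its brightest probe. It read 9.40, 9.49, 9.10, 9.26 and 9.39 in restricted mice, against 9.28, 9.43 and 9.69 in old ad libitum mice and 9.05, 9.19 and 9.30 in young mice. Only 1 old ad libitum mouse, mouse 6, was below the highest young mouse, and the restricted mice spanned both groups. The difference with age was 0.26 ± 0.084, 1.20-fold (95% interval 1.06 to 1.36, adjusted p = 0.0956), and under restriction -0.12 ± 0.088 (adjusted p = 0.472).

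Ndufaf3 and Ndufaf4 bind each other and help to build the part of the matrix arm that meets ubiquinone. Ndufaf3 read 7.27, 7.11, 7.07, 6.90 and 7.20 in restricted mice, against 7.18, 7.32 and 7.66 in old ad libitum mice and 6.95, 7.27 and 7.33 in young mice. It had the largest difference under restriction, -0.27 ± 0.10, 0.831-fold (95% interval 0.718 to 0.962, adjusted p = 0.145), and old ad libitum mice 5 and 6 were the highest of all. Its signal was the weakest of the tested complex I genes. Its SD between arrays of the same mouse, 0.16, was about as wide as that between mice, 0.17. Within the 4 chips, which share some mice, Ndufaf3 was lower under restriction by amounts from -0.072 to -0.47. Ndufaf4, by its brighter probe, read 11.30, 11.12, 11.27, 10.81 and 10.71 in restricted mice, against 10.71, 10.97 and 11.21 in old ad libitum mice and 10.93, 11.09 and 11.18 in young mice. Restricted mice spanned the values of both other groups, and the difference under restriction was 0.073 ± 0.11 (adjusted p = 0.761).

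Ndufaf1, of the membrane arm assembly complex, read 11.26, 11.35, 11.09, 11.30 and 11.16 in restricted mice, against 11.07, 11.28 and 11.81 in old ad libitum mice and 11.15, 11.34 and 11.46 in young mice. Ndufaf2, which stands in for Ndufa12 during assembly, read 10.83, 10.64, 10.60, 10.52 and 10.76 in restricted mice, against 10.43, 10.74 and 10.85 in old ad libitum mice and 10.53, 10.60 and 10.77 in young mice. In neither gene did the groups part, and old ad libitum mouse 6 was high for Ndufaf1 and old ad libitum mouse 4 low for Ndufaf2. Ndufaf5, which modifies Ndufs7, read 11.19, 11.05, 11.16, 10.86 and 10.90 in restricted mice, against 10.65, 10.99 and 11.20 in old ad libitum mice and 10.80, 10.90 and 11.20 in young mice. Ndufaf7, a methyltransferase of the matrix, read 7.54, 7.61, 7.62, 7.72 and 7.80 in restricted mice, against 7.39, 7.71 and 7.82 in old ad libitum mice and 7.42, 7.58 and 7.79 in young mice. The 4 genes differed by -0.004 to 0.098 with age and by -0.098 to 0.081 under restriction, less than the spread between mice.

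Where a gene had several probes, they did not always tell the same story. Of 15 such genes, the probes of 1 differed in sign with age, those of 9 under restriction and those of 2 between restricted and young mice. When each of 13265 probes was tested on its own, 0 of the 61 complex I probes passed with age, where 3.15% of all probes did, 0 under restriction, against 2.69%, and 1 between restricted and young mice, against 4.06%. It was the dimmer probe of Ndufaf4, singled out after its value was seen. It read 9.07, 9.18, 9.34, 9.43 and 9.66 in restricted mice, against 9.47, 9.74 and 10.01 in old ad libitum mice and 9.52, 9.85 and 10.04 in young mice. Of the 5 restricted mice, 4 were below every other mouse. The difference was -0.52 ± 0.13 between restricted and young mice (adjusted p = 0.0301, limma over all probes), and -0.39 under restriction, whereas the brighter probe gave -0.027 and 0.073. The dimmer probes of Ndufb6 and Ndufs6, also singled out after their values were seen, were higher in restricted than in young mice by 0.45 (adjusted p = 0.068) and 0.30 (adjusted p = 0.0846), while their brighter probes gave 0.089 and 0.001.

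**Figure D4:**
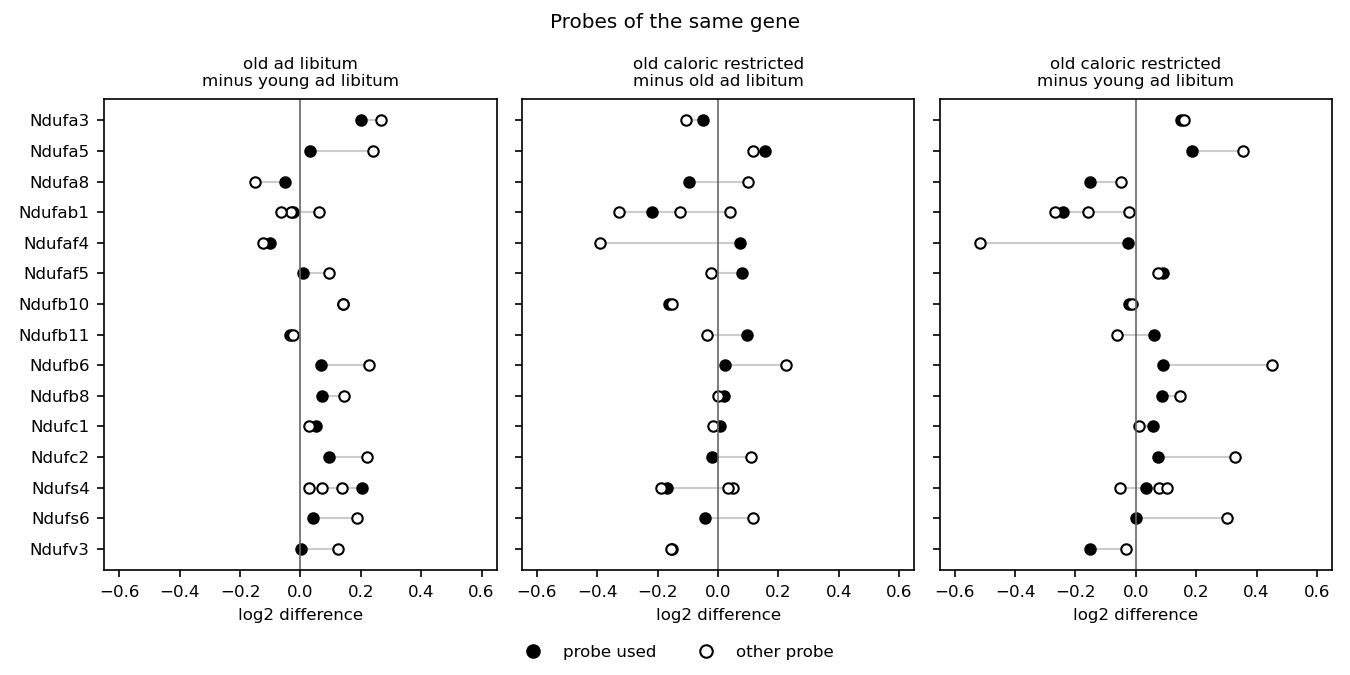
Log2 difference (x axis) of every tested probe of the 15 complex I genes with several probes (rows) in the 3 comparisons, with the brightest probe of a gene, the one used, as a filled point and the others as open points. Probes of Ndufaf4 lie 0.46 apart under restriction and 0.49 apart between restricted and young mice, and most others are closer.

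Of 5 mitochondrial ND genes tested, which encode the pumping core of complex I, 0 were called, and their median was -0.37 with age and 0.21 under restriction. ND1 and ND4 differed by 0.033 and 0.070 with age. Both averaged between 15.15 and 15.40 in the 3 groups, close to the highest value on any array, 15.53. ND4L differed by -0.82 with age (adjusted p = 0.178) and 0.80 under restriction (adjusted p = 0.193), ND5 by -0.42 and 0.21, and ND6 by -0.37 and 0.21. ND4L averaged 12.25 ± 0.96 in restricted mice (SD, n = 5), 11.45 ± 0.35 in old ad libitum mice and 12.27 ± 0.49 in young mice (SD, n = 6 each). Of 8 other assembly factors tested, such as Acad9 and Ecsit, 0 were called. Among 36 subunits of complexes II to V, 28 were higher with age (median 0.072) and 1 rose, Atp5e, a small subunit of ATP synthase, 1.34-fold (adjusted p = 0.0417). The difference between the complex I genes and these lists was not tested.

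None of 13 nuclear regulators of mitochondrial genes passed. Ppargc1a, which encodes the coactivator PGC-1 alpha, averaged 8.71 ± 0.32 in restricted mice (SD, n = 5), 8.28 ± 0.22 in old ad libitum mice and 8.46 ± 0.082 in young mice (SD, n = 6 each), a difference of 0.43 under restriction (adjusted p = 0.0719) and -0.18 with age (adjusted p = 0.438). Esrra, for ERR alpha, differed by -0.21 under restriction (adjusted p = 0.3) and 0.082 with age. Nrf1, Gabpa and Tfam, which act on the nuclear and mitochondrial genes of respiration, differed by -0.039, 0.078 and 0.11 under restriction, and by 0.058, -0.038 and -0.080 with age.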

How the data were processed

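For every probe on each array, the deposited table gives an average signal intensity that is not normalised, per the file headers, and beside it a detection p-value. Both came from GenomeStudio per the submitters' processing notes, which name no version. Processed intensity values from the authors' series matrix served as an alternative. Total RNA was extracted with QIAGEN RNeasy and labelled with Ambion MessageAmp, per the labels' protocols. The labels do not say in so many words that names stand for separate animals, so the p-values reflect only the variation among the samples as labelled, and arrays with the same name were averaged as 1 mouse. Arrays whose titles share the number before the letter were taken as 1 chip.

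Signals were background corrected and quantile normalised with neqc (limma 3.58.1, R 4.3.3, offset 16). Of 45281 probes, 15268 had a detection p under 0.01 on 5 arrays or more, and a gene was read by its brightest probe with 1 symbol, which left 8943 genes. Groups were compared in 1 limma fit (lmFit, eBayes, two-sided, Benjamini-Hochberg, threshold 0.05). The fit was also run on simulated data with added changes larger than any complex I gene difference here. That run does not cover differences of the size seen here. The number of mice limits the precision. Named were genes past the threshold, the 5 with the smallest p in each comparison, the core subunits, each Ndufaf gene, and, of the other genes, those past the threshold, 5 regulators and genes given as examples. The members and lists were chosen with earlier results of these data known. Alternatives were no background correction, and another scaling, source of values, detection filter, choice of probe and use of arrays. Others were chip, replicate block, prior, array weights, the 2 groups compared alone, and leaving out each mouse. The authors' values and the values without background correction called equal numbers of genes (216, 298 and 441), so they are not separate checks. Sequences are from RefSeq. The promoter words were chosen after seeing the data, and the NRF1 word was shortened by its last letter after its first counts were seen, for a reason of format and not of biology. Figures were drawn with matplotlib 3.10.9.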

Additional observations from a re-analysis of the deposited data

Results flagged for a closer look

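In 6 of the 69 gene and group pairs checked, 1 mouse stood apart from the others of its group, where chance gives about 1 in 20. Ndufs4 was 13.71 in old ad libitum mouse 6, with the next at 13.47, and 13.43 in young mouse 6, with the next at 13.27. Old ad libitum mouse 1 was low for Ndufs3, at 13.27 with the next at 13.54, and high for Ndufs7, at 14.47 with the next at 14.24. Old ad libitum mouse 6 was at 11.81 for Ndufaf1, with the next at 11.34. Old ad libitum mouse 4 was at 10.43 for Ndufaf2, with the next at 10.72.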

How the results depend on the processing

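The count of complex I genes past the threshold was 0 in each comparison, and it stayed at 0 under restriction in all alternatives run. With arrays scaled to the 75th percentile it was 1 with age and 1 between restricted and young mice, Ndufa2 both times, where 3.13% and 4.18% of all genes were called, and the subunit medians were 0.18 and 0.16. With every probe on its own it was 1 between restricted and young mice. With array weights it was 1 with age (Ndufaf8, adjusted p = 0.0413, limma) and 2 between restricted and young mice (Ndufb4 and Ndufab1, adjusted p = 0.0365 and 0.0415), where calls over all genes came to 482 and 1147. Within chip C, which holds 1 old ad libitum array, the subunit medians were 0.15 with age and -0.14 under restriction. Under the 75th percentile scaling 10 complex I genes, 8 of them subunits, turned positive with age, among them Ndufab1 0.13, Ndufa10 0.044, Ndufv1 0.11, Ndufv2 0.063 and Ndufs8 0.088, and 8, 7 of them subunits, between restricted and young mice, among them Ndufb5 0.014, Ndufv2 0.016 and Ndufs8 0.074. With the mean of its probes Ndufaf4 was -0.16 under restriction. The cause was not tested. Leaving out each mouse kept all counts at 0 and gave subunit medians from 0.024 (without young mouse 1) to 0.080 (without young mouse 6) with age, from -0.049 (without old ad libitum mouse 4) to 0.001 (without restricted mouse 5) under restriction, and from 0.027 (without restricted mouse 3) to 0.066 (without young mouse 6) between restricted and young mice. Numbers in the labels were not taken to pair the mice in the main fit. Of 16 same-number pairs, 5 correlated above 0.1, from -0.25 to 0.19 in all. Whether the numbers mark matched mice was not tested. With the replicate block the counts were 0, 0 and 0, with subunit medians of 0.052 with age, -0.003 under restriction and 0.041 between restricted and young mice.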
